A study of Mus musculus with 21 samples.

Results

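The comparison described here is the change of the effect of retinoic acid (RA) on mouse embryonic stem cells (ESCs) between 12 h and 24 h. The RA effect at one time is the level with RA minus the level without RA at that time, and the change is the effect at 24 h minus the effect at 12 h. It rests on 12 of the 21 RNA sequencing libraries of the study, with 3 libraries in each of 4 groups. All 4 groups are wildtype ESCs that had been grown on gelatin with serum, LIF and 2i, a pair of inhibitors (PD0325901 at 1 µM, which blocks MEK, and CHIR99021 at 3 µM, which blocks GSK3). ESC-NoRA12h and ESC-NoRA24h were taken 12 h and 24 h after LIF and 2i were withdrawn. ESC-RA12h and ESC-RA24h were taken after 12 h and 24 h with 2 µM RA, and whether these cells also lost LIF and 2i is not stated in the labels. One more group, ESC-RA-0h, is the starting culture with no RA. Its 3 libraries entered the model only to help estimate the spread between libraries. The labels name the cells as ESC with no strain or clone, and the replicates are numbered without a statement that they were separate cultures, so the p-values measure only the spread between these libraries, which may be technical.

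RA is a derivative of vitamin A that enters the nucleus and binds retinoic acid receptors, which sit on DNA as dimers with retinoid X receptors and recruit activators once the ligand is bound. Direct targets include the Cyp26 enzymes that break RA down, the receptor gene Rarb and the 3′ genes of the Hox clusters, while genes further along the Hox clusters and lineage regulators follow later. ESCs without LIF and 2i leave the naive state and pass to a formative state marked by Fgf5, Otx2 and the de novo DNA methyltransferases. ESCs given RA also leave the naive state, and a share of them can turn on genes of the primitive endoderm, the extraembryonic layer that lays down a basement membrane of laminin and type IV collagen. A difference between 2 times can arise because the level with RA moved, because the level without RA moved, or both, and the results are ordered by that split.

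Values are TPM (transcript abundance scaled for gene length and library size), given per library in the order of the replicate numbers, or as mean ± SD (n = 3). Differences are on the log2(TPM + 1) scale with their standard error (SE), which makes the change of genes near 1 TPM smaller than their TPM ratio. A gene was called where the Benjamini-Hochberg adjusted p of limma was below 0.05 over 13948 genes, those that reached 1 TPM in 3 or more of the 15 time course libraries. Some genes met this filter only through the 3 libraries of 1 group. Their direction was largely set by the filter, so they are no independent support in the counts by list.

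The promoters of 4 genes on which the results turn show what sequence lies at their RefSeq start sites. They cover 250 bases before to 50 bases after the start in build GRCm38.p6, with matches to the searched motifs in capitals. Pgam2 had the largest change of the RA effect among the genes named here, Cyp26b1 is an RA-degrading enzyme, and Fgf5 rose without RA. DR5 is a direct repeat of the receptor binding hexamer AGGTCA with 5 bases between the copies. The Ppbp promoter was the only one of 13533 (0.00739%) that held exactly these letters on either strand. Ppbp was picked for that match after its values were seen. Repeats of variant hexamers were not searched, and the Rarb promoter holds GGTTCA and AGTTCA with 5 bases between them.
Pgam2 (chr11:5803747-5804046, minus strand): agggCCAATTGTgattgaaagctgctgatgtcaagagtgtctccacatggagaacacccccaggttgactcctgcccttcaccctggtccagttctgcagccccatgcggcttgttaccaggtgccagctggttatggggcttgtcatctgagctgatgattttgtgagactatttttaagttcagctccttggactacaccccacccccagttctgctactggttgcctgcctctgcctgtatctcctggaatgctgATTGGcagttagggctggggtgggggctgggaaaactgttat
Cyp26b1 (chr6:84593761-84594060, minus strand): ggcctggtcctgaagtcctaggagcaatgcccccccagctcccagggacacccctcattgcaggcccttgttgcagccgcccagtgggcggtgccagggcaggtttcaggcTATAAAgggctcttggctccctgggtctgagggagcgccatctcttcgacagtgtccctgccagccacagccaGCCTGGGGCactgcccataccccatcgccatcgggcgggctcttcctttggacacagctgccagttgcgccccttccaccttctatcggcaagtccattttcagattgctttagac
Ppbp (chr5:90768268-90768567, plus strand): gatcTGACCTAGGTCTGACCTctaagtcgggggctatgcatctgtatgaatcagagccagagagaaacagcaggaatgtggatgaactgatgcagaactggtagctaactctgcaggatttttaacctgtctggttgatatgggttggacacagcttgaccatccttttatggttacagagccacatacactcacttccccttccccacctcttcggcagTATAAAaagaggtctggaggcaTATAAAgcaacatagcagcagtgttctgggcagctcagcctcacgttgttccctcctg
Fgf5 (chr5:98253934-98254233, plus strand): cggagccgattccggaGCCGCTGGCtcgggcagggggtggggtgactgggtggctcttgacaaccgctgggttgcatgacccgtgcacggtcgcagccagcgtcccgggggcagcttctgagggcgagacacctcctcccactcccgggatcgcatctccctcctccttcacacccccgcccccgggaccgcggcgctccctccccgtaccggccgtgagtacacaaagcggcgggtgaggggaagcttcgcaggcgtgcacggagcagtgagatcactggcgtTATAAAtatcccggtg

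In Pgam2 the capitals mark a CCAAT box (CCAAT) that overlaps a SOX core (ACAAT), each read on one strand or the other, and a second CCAAT box. In Cyp26b1 and Fgf5 they mark a TATA box (TATAAA) and an AP-2 core (GCCNNNGGC). In Ppbp they mark the direct repeat, which contains 2 hexamers AGGTCA on the minus strand, and 2 TATA boxes. These letters are common: the hexamer alone was in 12.6% of all promoters of tested genes, the SOX core in 20.4%, the AP-2 core in 24.8%, the CCAAT box in 38.1% and the TATA box in 7.06%. A match is a description of the letters and not evidence that a factor binds there. Promoters were matched for 10609 of the tested genes and for 676 of the genes called for the change of the RA effect.

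Depth per library was 2.96 to 3.91 gigabases of sequence over genes, and 11928 to 13482 genes reached 1 TPM. All libraries held the defining ESC transcripts, with Pou5f1, Sox2, Nanog, Sall4, Lin28a and Dppa5a summing to at least 6507 TPM in each. ESC-NoRA12h replicate 1 and ESC-RA24h replicate 2 stood apart from the other libraries of their groups. They lay at 31.79 and 51.56 on the main axis of spread inside groups, where their group partners lay between -43.5 and -13.46. That axis held 67.24% of the variance left after the group means, and its gene weights followed GC content with a Spearman rho of -0.695 across 13937 genes, which share their libraries and are not replicates. The 3 ESC-RA12h libraries lay between -41.14 and -33.81 and the 3 ESC-NoRA24h libraries between 23.22 and 39.01, so the axis also differed between groups, and its part in the group differences was not tested. Counts with these 2 libraries left out are given beside the lists below whose number of called members they move by over 1.5 times. Without them ESC-NoRA12h and ESC-RA24h keep only libraries between -43.5 and -13.46, while ESC-NoRA24h stays between 23.22 and 39.01. Leaving them out therefore also shifts how the 4 groups differ along the axis. The part of that shift in these counts was not tested.

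The RA effect changed between 12 h and 24 h for 955 of 13948 genes (6.85%). It became higher for 581 genes (4.17%) and lower for 374 genes (2.68%), and 290 of the 955 (2.08% of genes tested) changed at least 2-fold. The median change over all genes tested was 0.05. The call held without each of the 12 libraries in turn for 335 of the 581 and 235 of the 374. Each effect on its own was called for more genes at 24 h than at 12 h: 1428 genes were higher (10.2%) and 1003 lower (7.19%) with RA at 12 h, against 3178 higher (22.8%) and 1737 lower (12.5%) at 24 h. Of the 955 genes, 478 were not called at 12 h but were at 24 h, 293 had a larger effect of the same sign at 24 h, 22 a smaller one, 115 were called at 12 h only, and 43 were called at both times in opposite directions.

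The share of higher among called genes, 60.8%, depended on the scaling and the libraries. After correction for GC content and length 689 genes were higher and 847 lower (44.9% higher), after quantile normalization 279 and 320 (46.6%), and without the 2 libraries that stood apart 2028 and 2046 (49.8%). Leaving out ESC-RA24h replicate 2 alone gave 1075 higher genes, leaving out ESC-RA12h replicate 3 gave 384 and leaving out ESC-RA24h replicate 1 gave 385. Of the 955 genes, 943 were again called in the same direction without both libraries, 810 after the GC and length correction and 535 after quantile normalization. With the axis of spread as a covariate all 955 were, and 59.4% of the genes then called were higher. The balance of higher and lower genes thus depended on the setting, and the results below are given by gene.

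**Figure D1:**
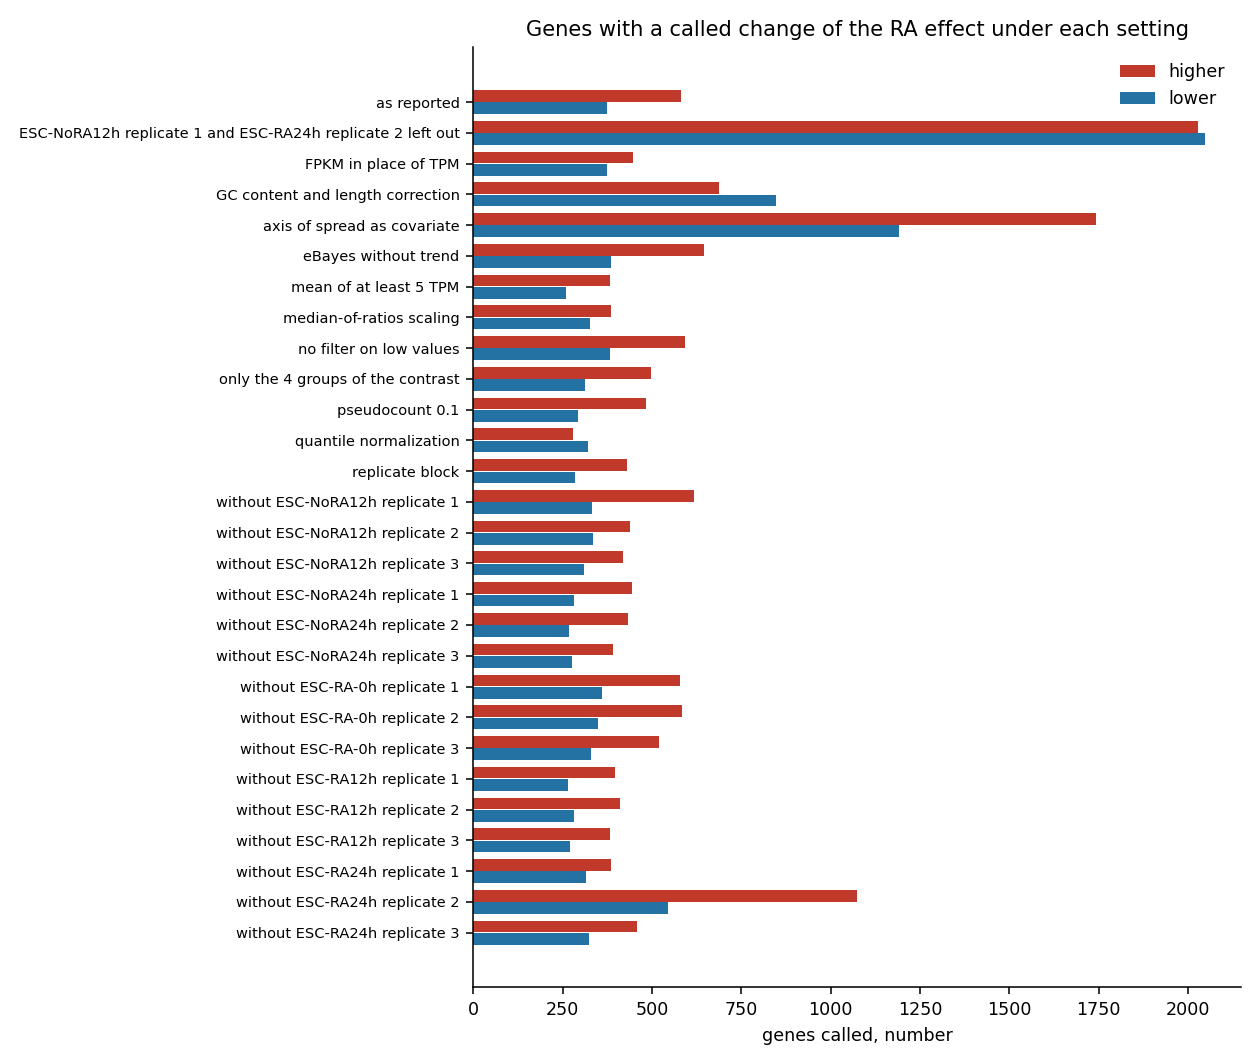
Number of genes called for a higher (red) or lower (blue) change of the RA effect in the analysis as reported and under each other setting or with each library left out (limma, adjusted p below 0.05). The reported 581 and 374 stand at the top, and the bars reach 2028 and 2046 where 2 libraries were left out together.

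Splitting each change into its 2 parts showed that the level with RA moved in some genes and the level without RA in about as many others. The level with RA moved, and the level without RA was not called, in 225 higher and 94 lower genes. The level without RA moved, and the level with RA was not called, in 159 higher and 157 lower genes. Both moved in opposite directions in 78 higher and 42 lower genes, both moved in the same direction by unequal amounts in 117 higher and 79 lower genes, and neither part was called in 2 higher and 2 lower genes. For comparison, between 12 h and 24 h 4826 genes (34.6%) changed with RA, of which 2487 (17.8%) rose and 2339 (16.8%) fell. Without RA 5528 genes (39.6%) changed, of which 2380 (17.1%) rose and 3148 (22.6%) fell. A part that was not called is not shown to be flat. When genes were instead assigned by the size of the 2 parts, 367 went to the level with RA, 363 to the level without RA and 225 were shared. Without the 2 libraries that stood apart, 689 genes were in the class of a moved level with RA and 2375 in the class of a moved level without RA.

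**Figure D2:**
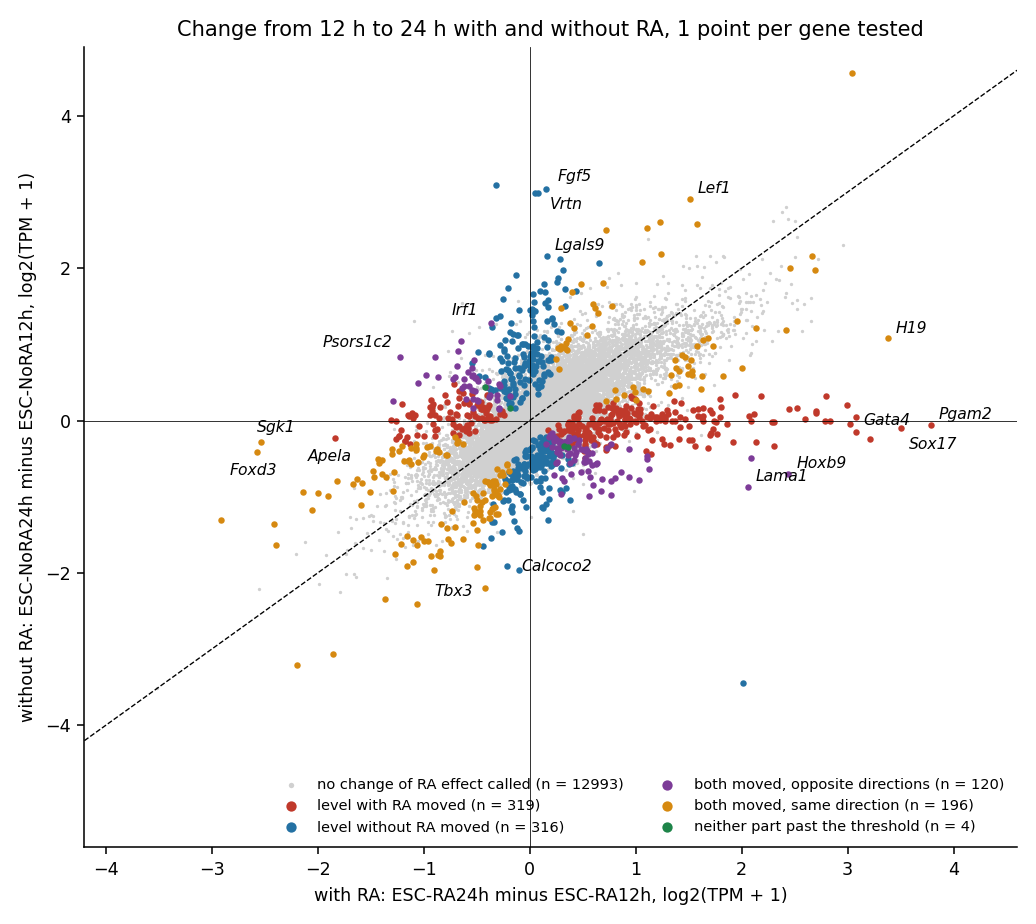
Each point is 1 of the 13948 genes tested, placed by its difference between 24 h and 12 h with RA (horizontal) and without RA (vertical) on the log2(TPM + 1) scale, with the genes called for the change of the RA effect in colour by class. Points to the right of and below the dashed line have a higher RA effect at 24 h; Pgam2 and Sox17 lie far out along the horizontal axis and Fgf5 and Vrtn far up the vertical one.

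Among the named genes, the level with RA rose most between 12 h and 24 h in Pgam2, followed by Sox17. Pgam2 (ENSMUSG00000020475, chromosome 11 from 5801640 to 5803733 in mm10), the muscle form of the glycolytic enzyme phosphoglycerate mutase, stood without RA at 5.16, 3.33 and 2.84 TPM at 12 h and 5.68, 2.48 and 2.94 TPM at 24 h. With RA it stood at 6.60, 6.0 and 4.23 TPM at 12 h and 90.7, 78.8 and 98.8 TPM at 24 h. The 3 libraries with RA at 24 h lay far above the other 9, and the other 3 groups overlapped. The RA effect was 0.48 ± 0.25 (SE) at 12 h, which was not called (adjusted p = 0.231, limma), and 4.32 ± 0.25 at 24 h (adjusted p = 3.22e-08, limma). The change was 3.84 ± 0.36 (adjusted p = 2.98e-05, limma), and the part without RA was -0.05 ± 0.25.

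Sox17 (ENSMUSG00000025902, chromosome 1 from 4490931 to 4497354), an HMG box transcription factor of primitive and definitive endoderm, was near 0 until 24 h with RA. It was listed without RA at 0.0396, 0 and 0.820 TPM at 12 h and 0.115, 0.170 and 0.186 TPM at 24 h, and with RA at 0.0925, 1.26 and 0.504 TPM at 12 h. At 24 h with RA it stood at 18, 13.8 and 18.3 TPM, with no overlap with any other group. The change of the RA effect was 3.60 ± 0.36 (adjusted p = 5.56e-05, limma).

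Other endoderm regulators also rose with RA. Gata4, a zinc finger factor of primitive endoderm and heart, stood at 1.16, 0.622 and 1.21 TPM at 12 h and 17.6, 13.9 and 15.7 TPM at 24 h with RA. It stood at no more than 0.670 TPM in any ESC-NoRA12h or ESC-NoRA24h library (change 3.23 ± 0.22, adjusted p = 1.71e-06, limma). The starting culture stood at 1.75 ± 0.338 TPM for Gata4, above the group with RA at 12 h. Gata6, which acts ahead of Gata4 in primitive endoderm, was already at 16.9, 16.8 and 20.1 TPM at 12 h with RA and reached 71.1, 59.7 and 63 TPM at 24 h, against 0.842 ± 0.130 and 1.27 ± 0.405 TPM (mean ± SD, n = 3) without RA. Its RA effect was 3.36 ± 0.14 at 12 h and 4.86 ± 0.14 at 24 h, with a change of 1.50 ± 0.20 (adjusted p = 0.000543, limma). Foxq1, a forkhead factor, went with RA from 0.261 ± 0.106 to 7.24 ± 0.771 TPM. The list of endoderm transcription factors had 14 members tested, of which 8 had a higher RA effect at 24 h, none a lower one and 6 were not called, against 4.17% higher and 2.68% lower over all genes tested. The median change was 1.5, against 0.05 over all genes. Sox17 and Foxq1 met the filter only through ESC-RA24h, which left little room for any call but higher. Sox7, Foxa2 and Foxa1 were also among the 8, and the level of Foxa2 at 24 h with RA was only 2.05 to 3.29 TPM.

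Matrix and surface genes of the primitive endoderm gained RA effect too. Of 21 members tested, 12 had a higher effect at 24 h, none a lower one and 9 were not called (median change 0.91, against 0.05 over all genes). Over all genes 4.17% were higher and 2.68% lower. Between the times 14 of the 21 rose with RA and 3 fell, against 17.8% and 16.8% of all genes. Among the 12, the laminin chains Lamb1 and Lamc1 had a called negative RA effect at 12 h, of -0.33 and -0.40. At 24 h their effects were 0.58 and 0.22. Pdgfra and Dab2 met the filter only through ESC-RA24h. Lama1, the alpha chain of laminin-111, showed both parts. Without RA it fell from 7.76, 6.28 and 6.97 TPM to 3.37, 3.68 and 3.05 TPM, and with RA it rose from 7.07, 7.61 and 8.05 TPM to 37.1, 35.1 and 32.3 TPM. No difference between the groups was called at 12 h (RA effect 0.10 ± 0.10, adjusted p = 0.521, limma), and at 24 h the effect was 3.04 ± 0.10. The change was 2.93 ± 0.14 (adjusted p = 1.58e-07, limma). The starting culture stood at 72.6 ± 6.25 TPM, above all 4 groups.

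The type IV collagen chains Col4a1 and Col4a2 and the collagen chaperone Serpinh1 had the same shape as Lama1 on a smaller scale. Col4a1 fell without RA from 65.8 ± 2.12 to 40 ± 3.09 TPM and rose with RA from 65.5 ± 2.29 to 77.4 ± 6.70 TPM (change 0.94 ± 0.10, adjusted p = 0.000118, limma). Serpinh1 fell from 33.6 ± 3.47 to 17.2 ± 1.48 TPM without RA and rose from 44.2 ± 2.28 to 71.3 ± 8.84 TPM with RA. Pdgfra, a receptor of primitive endoderm, rose only in the part with RA, from 0.447, 0.662 and 0.409 TPM to 6.80, 10.6 and 5.17 TPM (change 2.29 ± 0.26, adjusted p = 0.000165, limma). Its highest library was ESC-RA24h replicate 2, one of the 2 that stood apart. Dab2, an endocytic adaptor used as a primitive endoderm marker, went from 0.694, 0.461 and 0.495 to 4.75, 4.60 and 3.89 TPM with RA, and the proteoglycan core gene Srgn from 6.01 ± 1.44 to 28.2 ± 3.69 TPM.

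Read as markers, Gata4, Gata6, Sox17, Sox7 and Dab2 summed to 20 to 24 TPM at 12 h and 100.7 to 120.1 TPM at 24 h with RA, against 1.81 to 3.03 and 2.23 to 2.55 TPM without RA. In bulk RNA, more cells of a type and more RNA per cell cannot be told apart. The ESC markers in the same 24 h libraries with RA still summed to 6507 to 7646 TPM. The trophoblast markers Cdx2, Gata3, Elf5 and Hand1 summed with RA to 9.72 to 11.2 TPM at 12 h and 5.29 to 6.89 TPM at 24 h. Without RA they summed to 3.72 to 4.89 and 1.44 to 2.54 TPM. The whole list of 19 trophoblast and simple epithelium genes went the other way with RA, from 146 to 154 TPM at 12 h to 175 to 222 TPM at 24 h. Without RA that list summed to 128 to 169 and 157 to 158 TPM. Sums over a set are led by its most abundant gene.

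**Figure D3:**
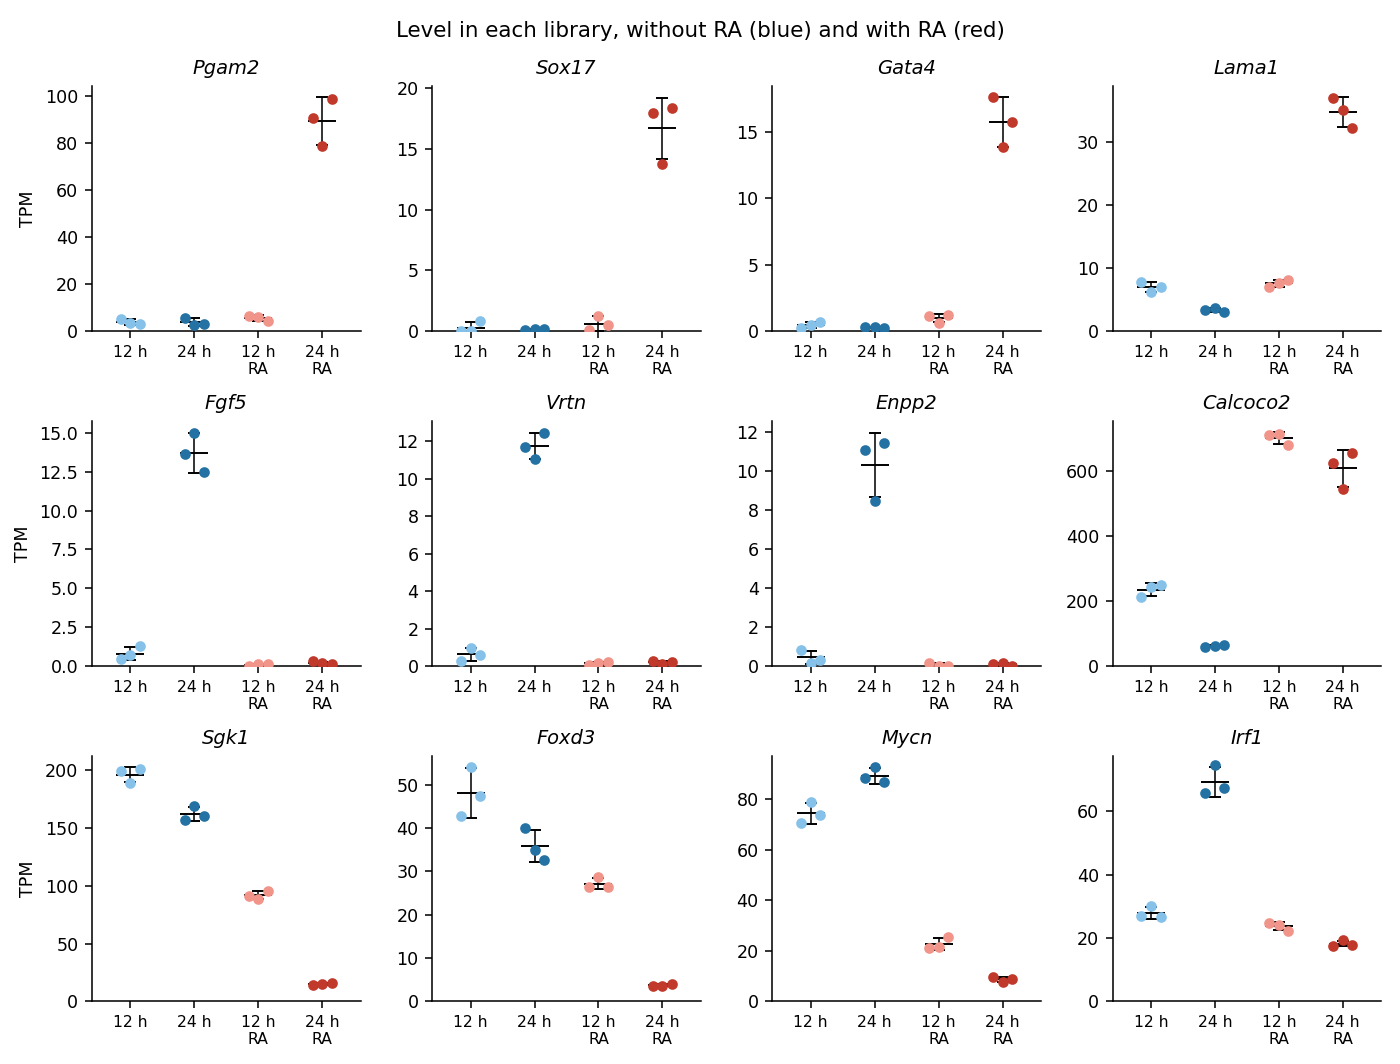
Level in TPM of 12 genes in each of the 12 libraries, by time and treatment, with 1 point per library and the mean and SD of 3 libraries as black bars. The top row rose with RA at 24 h, the middle row changed mainly without RA, and the bottom row had a lower RA effect at 24 h, with Sgk1 between 14.4 and 16.2 TPM in the last group.

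The Hox genes had higher RA effects at 24 h across 2 clusters. All 10 Hoxa genes tested and 9 of 10 Hoxb genes tested were higher, and none was lower, with median changes of 1.34 and 2.81. Over all genes tested 4.17% were higher and 2.68% lower, with a median of 0.05. In the Hoxc and Hoxd clusters 1 of 9 genes tested was called, Hoxc4, which was also higher. Hoxa and Hoxb genes encode the homeodomain factors that give cells their place along the head to tail axis, and the 3′ genes of a cluster answer to RA before the 5′ genes. The level with RA rose for 9 Hoxa genes and 9 Hoxb genes, against 17.8% of all genes. Without RA 3 Hoxa and 2 Hoxb genes fell, against 22.6% of all genes.

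In the middle of the Hoxa cluster, Hoxa5 went with RA from 23.9, 25.4 and 24.4 TPM to 84, 73.6 and 78.9 TPM (change 1.47 ± 0.17, adjusted p = 0.000197, limma). Hoxa7 went with RA from 13.8, 16 and 16.2 TPM to 54.8, 47.3 and 54.5 TPM (change 1.89 ± 0.18). Towards the 5′ end, Hoxa10 went from 5.57 ± 0.384 to 12.5 ± 1.28 TPM with RA and fell from 0.845 ± 0.173 to 0.0716 ± 0.0822 TPM without RA.

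The Hoxb genes were low or listed at 0 without RA at 12 h and 24 h. Hoxb2 stood with RA at 3.14, 3.14 and 3.47 TPM at 12 h and 36.9, 25.8 and 39.4 TPM at 24 h, and without RA no library exceeded 0.0736 TPM (change 3.07 ± 0.19, adjusted p = 1.04e-06, limma). Hoxb9, a 5′ gene of the cluster, stood with RA at 3.69, 3.81 and 3.69 TPM and then 27, 21.3 and 26.2 TPM, while without RA it fell from 1.21, 1.84 and 1.85 to 0.551, 0.775 and 0.527 TPM (change 3.14 ± 0.18, adjusted p = 5.49e-07, limma). The starting culture stood at 3.56 ± 0.271 TPM for Hoxb9, close to the level with RA at 12 h. Hoxb5 was listed at 0 in all 6 libraries without RA and at 4.64, 4.51 and 3.40 and then 38.1, 32.3 and 36.8 TPM with RA. Hoxb1 was also listed at 0 in all 6 libraries without RA, and with RA stood at 0.457, 0.445 and 0.446 and then 10.3, 8.39 and 8.50 TPM. Within these groups Hoxb1 met the filter only through ESC-RA24h. Hoxb8 was listed at 0 in the 3 libraries without RA at 24 h and at 0, 0.496 and 0.0964 TPM at 12 h, and rose with RA from 2.25, 1.63 and 2.02 to 26.7, 25.7 and 27.1 TPM. No fold is given against groups listed at 0, and a listed 0 can be a failed estimate, since Hprt, a housekeeping gene, was listed at 0 to 1.14 TPM in these libraries.

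Direct targets of RA also had higher effects at 24 h. Of 17 tested, 12 had a higher effect at 24 h, none a lower one and 5 were not called (median change 0.81). Over all genes tested 4.17% were higher and 2.68% lower. After quantile normalization 7 of the 17 were called and after median-of-ratios scaling 9. Cyp26b1, an enzyme that oxidises RA, stood without RA at or below 0.140 TPM, and with RA at 3.26, 3.45 and 3.88 TPM at 12 h and 21.5, 19.9 and 22.7 TPM at 24 h (change 2.32 ± 0.15, adjusted p = 1.19e-06, limma). Its relative Cyp26a1 was far ahead of it at 12 h, at 122, 121 and 119 TPM, and reached 336, 281 and 324 TPM at 24 h. The RA effect of Cyp26a1 was 6.39 ± 0.13 at 12 h and 7.49 ± 0.13 at 24 h, with a change of 1.10 ± 0.19 (adjusted p = 0.00279, limma), and it was not called with a pseudocount of 0.1. The difference between the changes of the 2 enzymes was not tested.

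Other RA targets differed in what happened without RA. Zfp703, a transcriptional repressor, went from 11.1, 10.9 and 10.3 to 46.4, 36.4 and 43 TPM with RA (change 1.90 ± 0.18). Meis1, a cofactor of HOX proteins, went from 7.04, 7.60 and 8.07 to 25.9, 24.2 and 21.8 TPM (change 1.40 ± 0.18), and its call was lost after the GC and length correction. Meis2, its paralog, had no called RA effect at 12 h, with similar levels in ESC-NoRA12h (18.2 ± 3.45 TPM) and ESC-RA12h (17.6 ± 0.304 TPM), then fell without RA to 9.58 ± 0.841 TPM and rose with RA to 27.3 ± 3.64 TPM. Rarb, the receptor gene that RA induces through its own promoter, went from 2.02, 2.20 and 2.25 to 4.94, 6.91 and 3.28 TPM, but its change of 0.95 ± 0.25 (adjusted p = 0.0365, limma) held in only 2 of the 12 repeats that left out 1 library. Stra8, the meiosis gene named for its RA response, had a large effect at both times, with 301 ± 8.86 and 822 ± 79.6 TPM with RA, and its change of 0.58 ± 0.15 was as weakly held. Ppbp, the chemokine gene with the direct repeat shown above, was low throughout and reached 2.66, 4.38 and 2.25 TPM at 24 h with RA against 0.622, 0.196 and 0.204 TPM at 12 h (change 1.53 ± 0.30, adjusted p = 0.00766, limma).

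Signalling genes were among those that rose with RA. Fgfr2, a receptor for fibroblast growth factors that is expressed in primitive endoderm, stood between 0.900 and 1.56 TPM in all 9 libraries other than those with RA at 24 h, where it stood at 11.9, 14.7 and 12.4 TPM (change 2.36 ± 0.16, adjusted p = 1.71e-06, limma). Dkk1, a secreted WNT antagonist, was listed at 0 in the 3 libraries without RA at 24 h and at 0.231, 0.178 and 0 TPM with RA at 12 h, and stood at 3.64, 4.13 and 4.20 TPM with RA at 24 h. Dkk1 met the filter only through that last group. Runx1, a transcription factor of blood development, went from 0.255, 0.346 and 0.177 to 3.16, 3.70 and 2.93 TPM with RA. Lefty1, an inhibitor of Nodal, rose in both conditions, from 14.2 ± 2.49 to 23.3 ± 2.80 TPM without RA and from 19.1 ± 0.895 to 80.2 ± 10.4 TPM with RA (change 1.32 ± 0.19, adjusted p = 0.00112, limma).

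Among genes whose level with RA fell between 12 h and 24 h, 94 in all with a median change of -0.76, the named gene with the largest change was Apela (chromosome 8 from 65028417 to 65037336), which encodes a peptide ligand of the apelin receptor. Without RA it stood at 80.2, 78 and 89.2 TPM at 12 h and 70.3, 68.3 and 72.7 TPM at 24 h. With RA it stood at 113, 115 and 116 TPM at 12 h, above the libraries without RA, and 31.6, 30.5 and 31.7 TPM at 24 h, below them. The RA effect was 0.47 ± 0.09 at 12 h and -1.15 ± 0.09 at 24 h, and the change was -1.62 ± 0.13 (adjusted p = 9.7e-06, limma).

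Pluripotency genes were in this group. Nr0b1, a nuclear receptor of the naive ESC network, stood with RA at 134, 139 and 138 TPM at 12 h and 63.8, 51.4 and 61.4 TPM at 24 h, and without RA at 192 ± 24.8 and 176 ± 5.13 TPM (change -1.10 ± 0.14, adjusted p = 0.000312, limma). Dppa2, which encodes a chromatin-associated ESC protein, stood with RA at 393, 365 and 396 TPM at 12 h and 194, 242 and 169.6 TPM at 24 h. Without RA it stood at 175, 152 and 195 TPM and then 192, 180.1 and 175 TPM, so only the group with RA at 12 h stood well above the rest. Its RA effect of 1.15 ± 0.12 at 12 h was 0.13 ± 0.12 at 24 h, which was not called. Dppa4, its partner, fell with RA from 236 ± 8.65 to 162 ± 19.4 TPM and rose without RA from 209 ± 29 to 275 ± 10.3 TPM.

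Ccnd1, the G1 cyclin D1, stood at 94, 108 and 104 and 103, 108 and 104 TPM without RA, and at 53.2, 55.3 and 51.8 TPM at 12 h and 26.9, 21.1 and 25.6 TPM at 24 h with RA. Its level without RA differed by 0.04 ± 0.08 between the times and its level with RA by -1.10 ± 0.08, giving a change of -1.14 ± 0.11 (adjusted p = 5.33e-05, limma). Kirrel2, an adhesion molecule of the nephrin family, had no called RA effect at 12 h and stood at 3.85, 3.32 and 3.84 TPM with RA at 24 h against 12.5, 12 and 10.3 TPM without. Nphs1, which encodes nephrin and is its neighbour on chromosome 7, also had a lower effect at 24 h and is described with the genes whose effect changed sign. Smagp and Napsa fell to 19.7 ± 5.11 and 7.45 ± 0.605 TPM with RA at 24 h, from 42.9 ± 4.49 and 15.1 ± 1.83 TPM at 12 h. Mup6 fell from 9.17 ± 0.610 to 3.72 ± 1.15 TPM, but it belongs to a family of near-identical genes whose reads are hard to assign.

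The largest drops of the RA effect among the named genes were in genes that rose without RA and stayed near 0 with it. Fgf5 (ENSMUSG00000029337, chromosome 5 from 98254184 to 98277030), the growth factor that marks formative cells, stood without RA at 0.482, 0.694 and 1.27 TPM at 12 h and 13.6, 15 and 12.5 TPM at 24 h. With RA it stood at 0, 0.150 and 0.111 TPM and then 0.303, 0.183 and 0.150 TPM. The part without RA was 3.04 ± 0.14, the part with RA 0.16 ± 0.14, and the change of the RA effect -2.88 ± 0.20 (adjusted p = 2.58e-06, limma). The RA effect at 24 h was -3.60 ± 0.14, while no library with RA exceeded 0.303 TPM at either time.

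Vrtn, a DNA-binding protein linked to vertebral number, and Enpp2, which encodes the lysophospholipase autotaxin, had the same shape. Vrtn went from 0.298, 0.986 and 0.620 to 11.7, 11.1 and 12.5 TPM without RA, and stood at 0.0469, 0.179 and 0.221 and 0.293, 0.114 and 0.225 TPM with RA (change -2.91 ± 0.21, adjusted p = 2.9e-06, limma). Enpp2 went from 0.813, 0.184 and 0.338 to 11.1, 8.44 and 11.4 TPM without RA, and no library with RA exceeded 0.163 TPM (change -2.93 ± 0.23, adjusted p = 4.72e-06, limma). Tstd1 went from 3.05 ± 0.577 to 14.2 ± 1.84 TPM without RA and stood at 3.01 ± 0.440 and 2.76 ± 1.07 TPM with RA, and its call was lost with a pseudocount of 0.1.

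Lgals9, which encodes the sugar-binding protein galectin-9, differed from these in that it was already higher with RA at 12 h. With RA it stood at 42.7, 39.4 and 40.5 TPM at 12 h and 47.6, 40.6 and 49.9 TPM at 24 h, and without RA it rose from 2.77, 3.30 and 3.41 TPM to 18, 17.8 and 16.8 TPM. The RA effect was positive at both times and shrank from 3.34 ± 0.15 to 1.34 ± 0.15 (change -2.0 ± 0.21, adjusted p = 7.43e-05, limma). Egr1, an immediate response gene downstream of ERK, rose without RA from 3.51, 3.96 and 3.62 to 13.8, 12.5 and 11.9 TPM and stood at 5.01 ± 0.494 and 5.62 ± 0.223 TPM with RA. Its RA effect was 0.35 ± 0.11 at 12 h and -1.05 ± 0.11 at 24 h, both called.

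Of 19 formative and primed genes tested, 13 had a lower RA effect at 24 h (2.68% over all genes), none a higher one and 6 were not called, with a median change of -0.83. Within the 4 groups compared, Fgf5 and Vrtn met the filter only through ESC-NoRA24h. Without RA 15 of the 19 rose between the times (17.1% over all genes), with a median of 0.88, while with RA 7 rose and 4 fell, with a median of 0.08. Otx2, the homeobox regulator of the formative state, stood without RA at 94.3, 80.7 and 85.7 and then 167, 174 and 162 TPM and with RA at 16.6, 19.9 and 16.3 and then 15.2, 15.5 and 13.4 TPM (change -1.18 ± 0.14, adjusted p = 0.000166, limma). Grhl2, which opens epithelial enhancers in formative cells, went from 22.5 ± 0.989 to 50 ± 1.50 TPM without RA and stood at 4.24 ± 0.162 and 3.83 ± 0.234 TPM with RA. Pou3f1 rose in both, from 11.5 ± 1.98 to 51.6 ± 4.32 TPM without RA and from 6.52 ± 0.401 to 14.8 ± 1.39 TPM with RA.

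The de novo DNA methyltransferases were in the same class. Dnmt3a stood at 91.8, 102 and 95.4 TPM without RA and 103, 102 and 102 TPM with RA at 12 h, with no called difference (RA effect 0.09 ± 0.08). At 24 h it stood at 195, 171 and 168 TPM without RA and 116, 96.1 and 111 TPM with RA (change -0.81 ± 0.12, adjusted p = 0.000845, limma). Dnmt3b rose without RA from 259.7 ± 14.4 to 421 ± 23.5 TPM and stood at 169 ± 4.05 and 154 ± 11.3 TPM with RA (change -0.83 ± 0.09). The other 9 of the 11 tested genes of DNA methylation were not called, and without the 2 libraries that stood apart 2 of the 11 were higher and 3 lower. Over all genes tested 4.17% were called higher and 2.68% lower with all libraries in.

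Of 20 cholesterol synthesis genes tested, 15 rose and 1 fell without RA between the times, against 17.1% and 22.6% of all genes, while with RA 3 rose and 3 fell. The change of the RA effect was called lower for 7 of the 20, against 2.68% of all genes, and higher for none (median -0.46). It was lower for 13 without the 2 libraries that stood apart and for 13 after the GC and length correction. Cyp51, the sterol demethylase, went from 35.2, 33.3 and 36.7 to 67.1, 72.7 and 66.2 TPM without RA and from 36.1, 35.5 and 37.5 to 45.4, 43.8 and 43.1 TPM with RA (change -0.68 ± 0.09, adjusted p = 0.000572, limma). Insig1, a sterol sensor, went from 30.2 ± 1.72 to 60.2 ± 2.88 TPM without RA and from 35.3 ± 2.60 to 43.7 ± 1.85 TPM with RA.

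In the other direction, some genes gained RA effect while their level without RA fell. Calcoco2 (chromosome 11 from 96099326 to 96111964), which encodes an autophagy receptor, stood with RA at 712, 715 and 680.1 TPM at 12 h and 626, 546 and 657 TPM at 24 h. Without RA it fell from 213, 245 and 249 TPM to 58.9, 61.8 and 66.2 TPM. The RA effect went from 1.57 ± 0.08 to 3.27 ± 0.08 (change 1.69 ± 0.12, adjusted p = 1.71e-06, limma) with no rise in the part with RA (-0.21 ± 0.08). Cdx1, a caudal homeobox factor and RA target, was the same: it stood with RA at 104, 107 and 99.1 and 103, 84 and 104 TPM and fell without RA from 2.96, 3.54 and 4.48 to 0.718, 0.714 and 0.639 TPM (change 1.35 ± 0.16, adjusted p = 0.000252, limma). The starting culture stood at 64.5 ± 4.41 TPM for Cdx1. Spns3, a transporter gene, fell without RA from 2.19 ± 0.664 to 0.534 ± 0.191 TPM and stood at 11.5 ± 1.62 and 15.3 ± 2.71 TPM with RA.

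Where both levels moved in the same direction, the RA effect measured which moved more. Sgk1 (ENSMUSG00000019970, chromosome 10 from 21882184 to 21999903), a kinase downstream of PI3K, stood without RA at 199, 189 and 201 TPM at 12 h and 157, 169 and 161 TPM at 24 h. With RA it stood at 91.5, 88.9 and 95.2 TPM at 12 h and 14.4, 14.7 and 16.2 TPM at 24 h. The 4 groups did not overlap, and the starting culture was higher still, at 305 ± 7.47 TPM. The part with RA was -2.53 ± 0.06 and the part without RA -0.28 ± 0.06, and the change of -2.26 ± 0.08 had the smallest adjusted p of the named genes (7.37e-09, limma). Of the 19 tested genes of the PI3K, AKT and SGK list, Sgk1 was lower, Foxo3 was higher but held in only 5 of the 12 repeats that left out 1 library, and 17 were not called. The shares over all genes tested were 4.17% higher and 2.68% lower. Without the 2 libraries that stood apart, 4 of the 19 were higher and 5 lower.

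Foxd3, a forkhead factor on the list of formative and primed genes, had a shape like that of Sgk1. It stood without RA at 42.8, 54.1 and 47.3 and then 40, 34.9 and 32.7 TPM and with RA at 26.4, 28.7 and 26.4 and then 3.58, 3.60 and 4.02 TPM (change -2.16 ± 0.15, adjusted p = 1.71e-06, limma). Lef1, a nuclear partner of beta-catenin, rose in both conditions but far more without RA, from 10.2, 9.60 and 8.69 to 79.7, 80.4 and 73.3 TPM, against 1.88, 1.75 and 2.43 to 8.74, 6.05 and 8.13 TPM with RA (change -1.40 ± 0.18, adjusted p = 0.000492, limma). Fgf15 was similar, at 10.7 ± 0.728 and 66.6 ± 2.45 TPM without RA and 4.34 ± 1.07 and 10.4 ± 1.14 TPM with RA. Tmem54 had no called RA effect at 12 h and rose without RA to 9.97 ± 1.26 TPM, against 2.24 ± 0.623 TPM with RA.

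H19, an imprinted noncoding RNA, rose in both conditions and more with RA. It stood without RA at 8.26, 8.90 and 10.6 and then 21.1, 20.8 and 19.8 TPM, and with RA at 19.5, 14.6 and 17.2 and then 186, 151 and 229 TPM (change 2.30 ± 0.20, adjusted p = 1.32e-05, limma). Tbx3, a T-box factor of naive pluripotency and of endoderm, fell in both and less with RA, from 93.5, 98.6 and 97 to 21.2, 20 and 19.6 TPM without RA and from 135, 130.1 and 145 to 109.5, 94.9 and 101 TPM with RA (change 1.78 ± 0.09, adjusted p = 2.23e-07, limma). Stard8 fell from 7.90 ± 0.375 to 1.34 ± 0.0545 TPM without RA and from 6.45 ± 0.571 to 4.28 ± 0.0988 TPM with RA.

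The naive pluripotency list did not move as one. Of 16 tested, 13 fell with RA and 12 fell without RA between the times, against 16.8% and 22.6% of all genes. The change of the RA effect was higher for 3, lower for 4 and not called for 9 (median 0.06). The shares over all genes were 4.17% higher and 2.68% lower. Tbx3, Klf4 and Klf5 were higher. Klf4 fell without RA from 53.9 ± 1.74 to 23.2 ± 1.18 TPM and with RA from 51.5 ± 2.79 to 37 ± 2.38 TPM, and Klf5 fell without RA but rose with RA. Nr0b1, Klf2, Prdm14 and Fgf4 were lower. Klf2 fell from 109.7 ± 16.8 to 76.2 ± 7.78 TPM without RA and from 125 ± 2.74 to 47.2 ± 6.08 TPM with RA, and Prdm14 from 18.9 ± 1.09 to 7.81 ± 0.857 and from 21.9 ± 1.27 to 4.51 ± 0.278 TPM. The changes of Klf4 and Klf2, 0.72 ± 0.10 and -0.88 ± 0.17, were called with opposite signs.

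Both levels moved apart in a further set of lower genes. Mycn, a MYC family factor, rose without RA from 70.5, 78.7 and 73.9 to 88.4, 92.9 and 86.7 TPM and fell with RA from 21.1, 21.4 and 25.3 to 9.72, 7.67 and 8.70 TPM (change -1.55 ± 0.12, adjusted p = 6.18e-06, limma). Irf1, an interferon response factor, moved mostly without RA, from 27.1, 30.1 and 26.5 to 65.6, 74.6 and 67.4 TPM, and with RA from 24.7, 24.2 and 22.3 to 17.6, 19.2 and 17.8 TPM (change -1.65 ± 0.11, adjusted p = 1.19e-06, limma). Pax8, a paired box factor, went from 12.1 ± 0.699 to 22.5 ± 1.70 TPM without RA and from 4.31 ± 0.476 to 1.93 ± 0.718 TPM with RA. Fgf4, the growth factor that drives exit from the naive state, went from 118, 146 and 134 to 185, 175 and 179.7 TPM without RA and from 72.4, 70.1 and 72.6 to 57.8, 48 and 55.4 TPM with RA (change -0.86 ± 0.11, adjusted p = 0.000454, limma). With Fgf5 and Fgf15 lower and Fgfr2 higher, 4 of the 13 tested FGF ligands and receptors were called, against 6.85% of all genes. Without the 2 libraries that stood apart 2 were higher and 3 lower.

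For 43 genes the RA effect was called at both times with opposite signs, 23 from lower to higher with RA and 20 from higher to lower. Gjb5, a connexin, stood at 12 h at 13.3, 16.7 and 14.7 TPM without RA and 5.87, 4.63 and 4.22 TPM with RA. At 24 h it stood at 2.46, 3.50 and 3.34 TPM without RA and 4.98, 3.89 and 4.58 TPM with RA, and the starting culture at 63.7 ± 2.81 TPM. Its level with RA was not called between the times (-0.10 ± 0.14) and its level without RA fell (change 1.86 ± 0.19, adjusted p = 6.9e-05, limma). Cmtm3 had the same shape, with 18.5 ± 2.60 and 6.32 ± 1.24 TPM without RA and 12.7 ± 1.03 and 11.6 ± 0.561 TPM with RA. The intermediate filament gene Vim also did, with 281 ± 20 and 136 ± 4.32 TPM without RA and 209 ± 4.28 and 200.2 ± 13 TPM with RA, as a gene picked after its values were seen.

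In other genes of this kind both levels crossed. Clu, the secreted chaperone clusterin, stood without RA at 19.7, 23.4 and 22.2 and then 13.5, 12.1 and 14 TPM and with RA at 14.1, 13.4 and 12.4 and then 23.6, 23 and 28.9 TPM (change 1.54 ± 0.17, adjusted p = 0.000122, limma). Cdc42ep1, an effector of CDC42, went from 6.21 ± 0.570 to 3.17 ± 0.210 TPM without RA and from 3.61 ± 0.632 to 6.83 ± 1.07 TPM with RA. Psors1c2 crossed the other way, from 9.90, 11 and 9.81 to 19.4, 18.1 and 19.8 TPM without RA and from 23.1, 25.2 and 26.6 to 11.8, 8.38 and 10.5 TPM with RA (change -2.06 ± 0.16, adjusted p = 5.97e-06, limma). Nphs1 went from 17.7 ± 0.429 to 27.3 ± 2.12 TPM without RA and from 22.4 ± 1.17 to 10.9 ± 0.955 TPM with RA. Plcg2, a phospholipase C, rose without RA from 11.2, 13.7 and 12.7 to 43.4, 43.8 and 40.8 TPM and stood at 33.4, 32.1 and 31.4 and 37, 33.8 and 36.9 TPM with RA, so that an effect of 1.30 ± 0.08 at 12 h became -0.25 ± 0.08 at 24 h. Rxrg, which encodes a retinoid X receptor, stayed low but changed sign as well, with 0.796, 0.415 and 0.404 and then 1.43, 2.62 and 1.74 TPM without RA and 2.03, 1.17 and 1.76 and then 0.608, 0.716 and 0.608 TPM with RA.

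**Figure D4:**
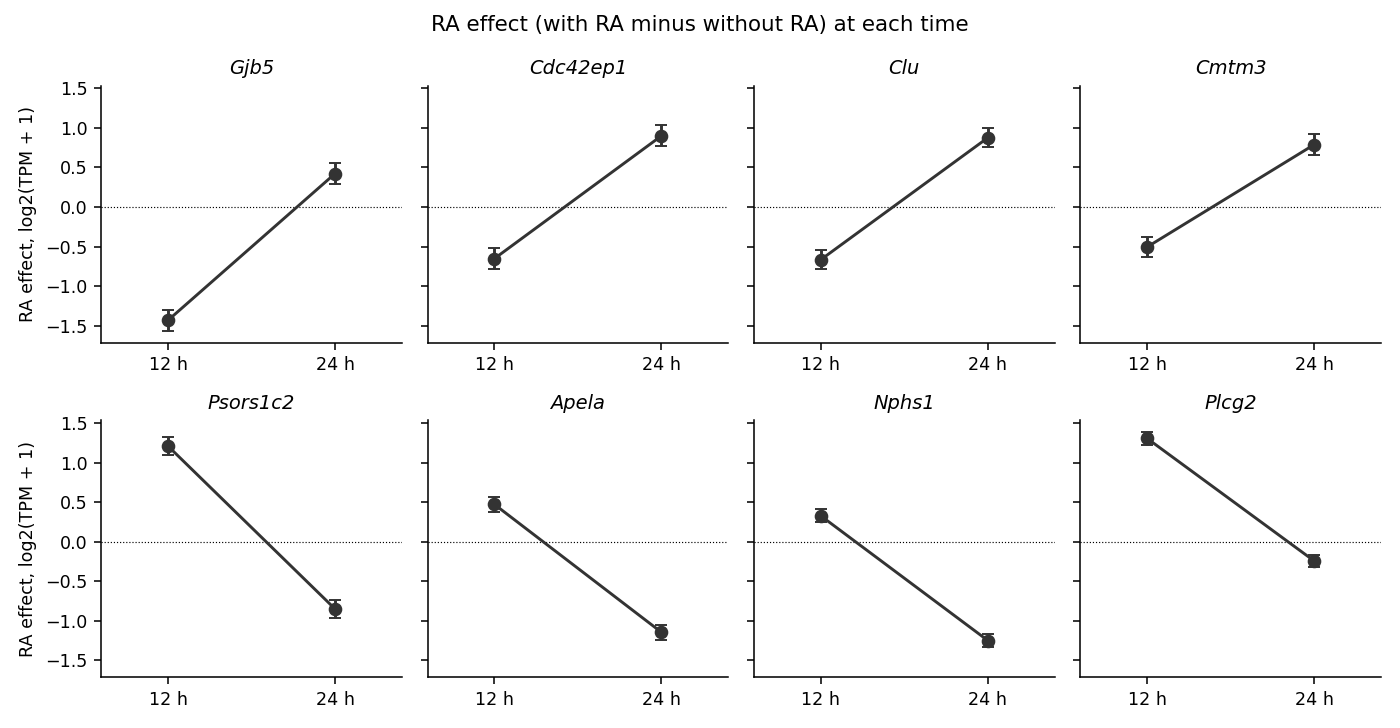
RA effect at 12 h and 24 h, as the level with RA minus the level without RA on the log2(TPM + 1) scale, for 8 of the 43 genes whose effect was called in opposite directions at the 2 times: the 4 largest changes of each sign among those with a mean of at least 5 TPM in a group and a call that held without each library, predicted models left out. Points are limma estimates from 3 libraries per group and bars are their standard errors; the upper 4 genes cross 0 upward and the lower 4 downward.

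Other gene lists had fewer members called, and several of these counts moved when the 2 libraries that stood apart were left out. Leaving them out also shifts the groups along the axis of spread, as described above. The shares over all genes tested, 4.17% higher and 2.68% lower, are the comparison for each list here and in the next paragraph. None of the 18 tested genes of Mediator, cohesin and looping factors was called by limma, with 1 higher and 1 lower at an unadjusted p below 0.05, and 1 was higher and 6 lower without the 2 libraries. Glycolysis had 3 higher, 1 lower and 19 not called of 23 tested: Pgam2, Eno2 and the glucose transporter gene Slc2a3 were higher and Ldhb was lower. Without the 2 libraries 10 of the 23 were higher and 2 lower. Eno2, the neuronal enolase, went from 2.35, 2.61 and 2.13 to 6.49, 5.45 and 6.08 TPM with RA and its call was lost after quantile normalization. The median change of the glycolysis list was 0.14. The 3 genes called in the Nodal list as higher were Lefty1, Lefty2 and Ski, and the 2 lower ones Inhbb and Tdgf1, of 17 tested, and without the 2 libraries 6 were higher and 3 lower. Of 18 WNT targets 3 were higher (Dkk1, Cdx1, Tnfrsf19) and 3 lower (Lef1, Ccnd1, Notum). Of 16 trophoblast and simple epithelium genes 4 were higher, Krt8, Krt18, Krt19 and Tfap2c, and 1 of the 16 was called higher after quantile normalization. Krt8, an intermediate filament keratin, fell without RA from 26.8 ± 5.54 to 18.9 ± 0.865 TPM and rose with RA from 21.7 ± 1.38 to 48.3 ± 8.37 TPM.

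Amino acid and stress genes driven by ATF4 rose in both conditions, 16 of 20 tested with RA and 16 without, against 17.8% and 17.1% of all genes tested. The RA effect was higher at 24 h for 3 (Atf5, Ddit4 and Asns) and lower for 1 (Slc7a3). Without the 2 libraries that stood apart 11 of the 20 were higher and none lower, and after the GC and length correction 6 were higher and 2 lower. Asns, the asparagine synthetase gene, was the 1 member that fell without RA, from 672, 669.8 and 714 to 515, 541 and 522 TPM without RA and stood at 614, 607 and 584 and then 619, 622 and 574 TPM with RA (change 0.39 ± 0.07, adjusted p = 0.00294, limma). Of 16 germline and meiosis genes tested, 10 rose with RA and 9 without. Rec8 and Stra8 had a higher RA effect and Tdrd12 a lower one, and without the 2 libraries 2 were higher and 4 lower. Rec8, the meiotic cohesin subunit gene, went from 13.9, 13.2 and 14.8 to 27.2, 23 and 25.9 TPM with RA and stood at 9.89 ± 1.09 and 8.72 ± 1.08 TPM without RA (change 0.98 ± 0.16, adjusted p = 0.00246, limma). Of 7 early neural genes tested, Sox1 and Sox21 were higher and Dll1 was lower, and without the 2 libraries 2 were higher and 2 lower. Sox1, a neural plate factor, fell without RA from 2.44, 2.69 and 2.37 to 1.26, 0.841 and 1.23 TPM and rose with RA from 3.36, 3.27 and 2.83 to 6.17, 4.57 and 4.86 TPM. Of 15 general pluripotency genes, Dppa2, Dppa4 and Tdgf1 were lower and 12 were not called, and after the GC and length correction 7 were lower. Without the 2 libraries 1 of the 15 was higher and 4 lower.

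**Figure D5:**
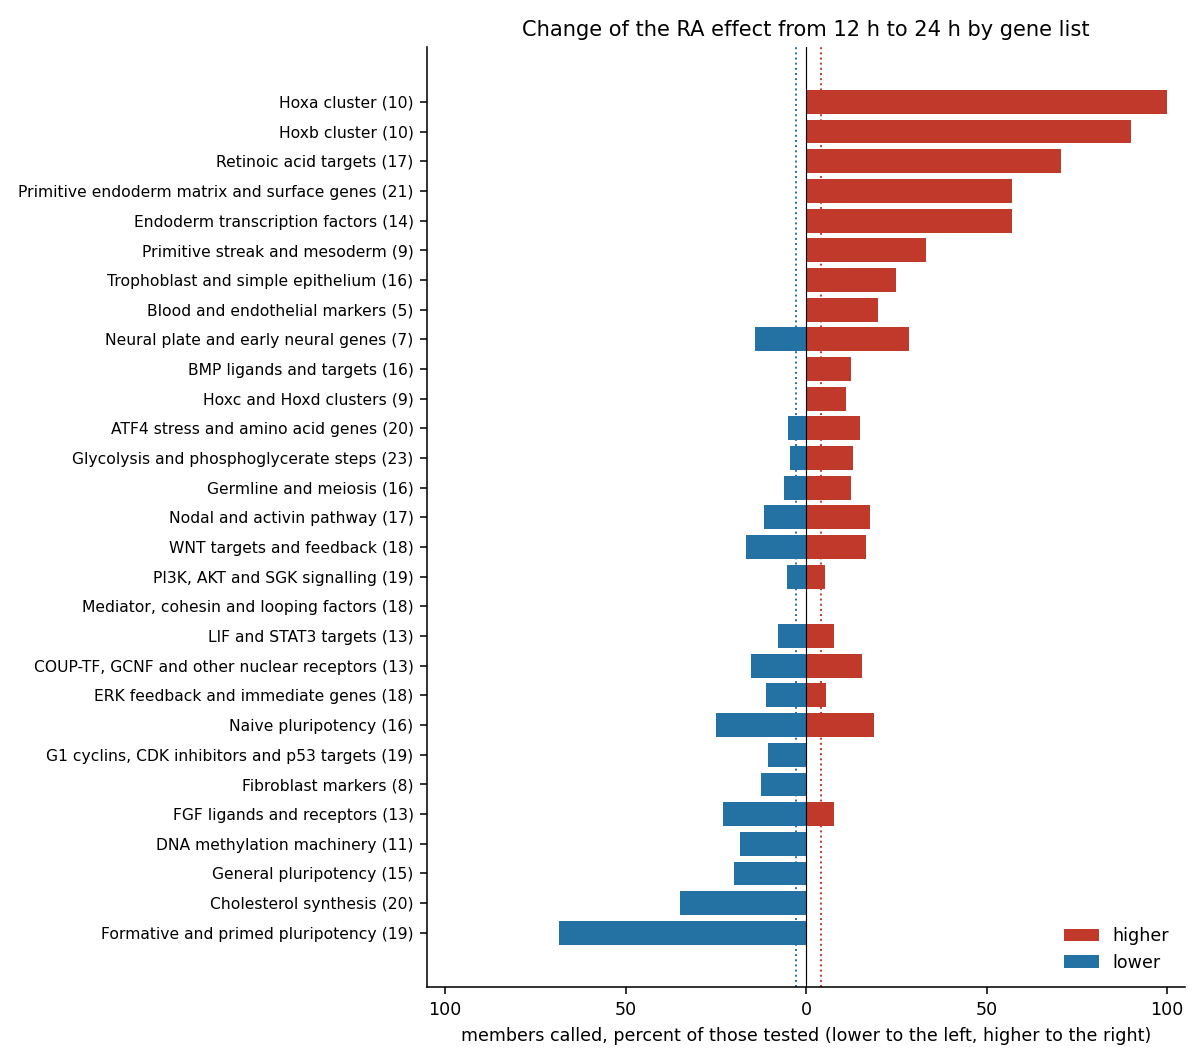
Share of the tested members of each gene list called for a higher (red, to the right) or lower (blue, to the left) change of the RA effect, in percent, with the number tested in brackets. Dotted lines mark the shares over all genes tested, 4.17% higher and 2.68% lower; the Hoxa and Hoxb clusters, the RA targets and the formative genes lie furthest from them.

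The 6 fibroblast markers Thy1, Col1a1, Col1a2, Col3a1, Postn and Dcn summed to 11.5 to 14.5 TPM at 12 h and 15 to 18.1 TPM at 24 h without RA, and to 4.53 to 7.98 and 5.05 to 5.94 TPM with RA. The whole list of 12 fibroblast genes summed to 18.7 to 23.4 and 20 to 25.9 TPM without RA and to 14.7 to 18.9 and 18.5 to 21.7 TPM with RA, with Lum listed at 0 in every group but ESC-RA24h. Of 8 fibroblast list members tested only Thy1 was called, as lower, and without the 2 libraries 1 was higher and 2 lower. Thy1 changed by -1.02 ± 0.20, with 11.1 ± 1.65 and 13.3 ± 0.665 TPM without RA and 4.58 ± 1.13 and 2.22 ± 0.266 TPM with RA. Thy1 is also expressed by pluripotent cells, and the part of fibroblasts in the changes was not tested. The markers of two-cell-like cells summed to 0.636 to 2.35 TPM in the ESC-RA24h libraries and to at most 0.384 TPM in every other group. None of them met the filter, so their change was not tested. Of 5 tested blood and endothelial markers 1 was called, as higher, against 4.17% of all genes.

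Promoter letters were also counted by class. The GATA core AGATAA was in 9.23% of the 195 promoters of higher genes whose level with RA moved, against 6.33% of all 13533 promoters. Its share was larger, 11.1%, in the 81 promoters of lower genes whose levels both moved in the same direction. The SOX core ACAAT was in 40.5% of the 42 promoters of lower genes whose levels moved apart, against 20.4% of all, and in 11.3% of the 150 promoters of higher genes whose level without RA moved. The receptor binding hexamer AGGTCA was in 15.4% of the promoters of higher genes whose level with RA moved and in 14% of those of lower genes whose level without RA moved, against 12.6% of all. Its share was 15.7% in lower genes whose level with RA moved and 16.7% in lower genes whose levels moved apart. Both strands were searched, several promoters of 1 gene were counted separately, and no test was made.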

How the data were processed

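Polyadenylated RNA of mouse ESCs was sequenced as paired ends, per the labels' protocols. The submitters' processing notes name HISAT2, StringTie and mm10; their versions, the annotation and the strand setting are not given in the sources. The deposited files give per gene a coverage signal (mean read depth per base), an FPKM value and a TPM value that the authors computed from it. TPM keeps no read counts, so no count test was run; coverage served only for the depth of the libraries, and FPKM as an alternative.

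All 15 time course libraries entered one limma 3.58.1 model (R 4.3.3) on log2(TPM + 1), with an intensity trend, for genes of at least 1 TPM in at least 3 libraries. The contrast was the difference between the RA effects at 24 h and 12 h, and its 2 parts were tested in the same model. Benjamini-Hochberg adjustment ran over all 13948 genes. The 6 libraries of the Cyp26a1 experiment were not used here. In simulated data with these group sizes, 72 of 100 genes changed by 1 and 89 of 100 changed by 2 (log2) were recovered, with 5 false calls of 13948. The changed genes were drawn from those with a mean log2(TPM + 1) of at least 2. The simulated noise was independent between genes, whereas the real libraries shared a main axis of spread. These counts therefore do not give the rate of false calls in the real data.

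Named genes are, for each class and sign, the 5 with the largest change (3 where both levels moved in the same direction) that were called without each library in turn, reached a mean of 5 TPM in a group and did not overlap between times in a called part. Predicted gene models were left out, and Pgam2, Sox17, Sgk1 and up to 4 called members of each gene list were added. Ppbp, Gata6, Sox7, Foxa1, Foxa2, Col4a1, Col4a2, Lamb1, Lamc1, Serpinh1, Hoxa5, Hoxb1, Hoxb5, Cyp26a1, Otx2, Grhl2, Pou3f1, Klf5, Tnfrsf19, Notum, Vim, Clu, Cdc42ep1, Plcg2 and Edn2 fall outside that rule and were chosen after their values were seen. Some genes that the rule names are not reported here. The comparison, its members and the gene lists were chosen with earlier results of these data known. Alternatives changed the pseudocount, the filter, the scaling, the unit, the variance model, the groups in the fit, GC content and length, the axis of spread, the replicate block and the libraries.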

Additional observations from a re-analysis of the deposited data

Results flagged for a closer look

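The comparison is itself a test of whether 2 RA effects differ, so all its called genes meet the criterion of a difference between groups: 581 genes with a higher and 374 with a lower RA effect at 24 h. Among them the effect was called in opposite directions at the 2 times for 23 genes that went from lower to higher with RA and 20 that went from higher to lower. The 4 largest of each sign are given, as changes on the log2(TPM + 1) scale, among genes with a mean of at least 5 TPM in a group and a call that held without each library, predicted models left out; Rxrg (-1.60) and Edn2 (-1.59) lie under that level. Gjb5 changed by 1.86 (RA effect -1.43 at 12 h and 0.42 at 24 h). Cdc42ep1 changed by 1.55 (from -0.65 to 0.90), Clu by 1.54 (from -0.67 to 0.88) and Cmtm3 by 1.29 (from -0.51 to 0.79). Psors1c2 changed by -2.06 (from 1.21 to -0.85), Apela by -1.62 (from 0.47 to -1.15), Nphs1 by -1.58 (from 0.33 to -1.25) and Plcg2 by -1.55 (from 1.30 to -0.25). The calls of these 8 genes held without each library in turn. Groups of 3 libraries are too small for a test of single outlying values.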

How the results depend on the processing

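None of the 104 named genes reversed under any alternative run, but the balance did: lower genes outnumbered higher ones after the GC and length correction (689 and 847), after quantile normalization (279 and 320) and without 2 libraries. Without ESC-NoRA12h replicate 1 and ESC-RA24h replicate 2 together, 2028 genes were higher and 2046 lower, 4545 rose without RA, and the classes held 689 (level with RA), 2375 (level without RA), 272 (apart) and 646 (same direction). The GC and length correction gave 847 lower genes and classes of 497 (level with RA), 194 (apart) and 383 (same direction). With the axis of spread as a covariate, 1742 were higher and 1190 lower, with classes of 1054, 911, 186 and 593. A mean of at least 5 TPM gave 383 higher genes, 1562 that rose with RA, and classes of 165 and 210 for the levels with and without RA. Median-of-ratios scaling gave 385 higher genes. Quantile normalization gave 279 higher genes, 1637 that rose with RA, and classes of 206, 207, 76 and 110. Calls of at least 2-fold numbered 163 higher and 127 lower. The causes were not tested.

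Leaving out 1 library at a time gave 384 to 1075 higher and 264 to 545 lower genes. With RA 1741 to 3065 genes rose and 1846 to 2444 fell, and without RA 1570 to 3636 rose and 2415 to 3505 fell. The classes ranged over 222 to 440 (level with RA), 209 to 718 (level without RA), 77 to 159 (apart) and 124 to 291 (same direction). Of the 104 named genes, 15 lost their call without at least 1 library and 23 under at least 1 other alternative. The named genes ranked by class were chosen from those whose call held without each of the 12 libraries, so their count is not a measure for all called genes. Over all called genes the call held for 335 higher and 235 lower genes. Deviations from the group means of libraries with the same replicate number had correlations of -0.837 to 0.310. These cannot decide whether the numbers pair the samples, because 67.24% of the variance inside groups lay on the main axis of spread. With a replicate block 430 genes were higher and 284 lower, and 93 of the 104 named genes were called. TPM carries no read counts, so values near 0 have no counting interval here.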
